A study of Mus musculus with 4 samples.

Results

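The lysosomal genes described here are 44 genes of mouse: 16 that encode the vacuolar proton pump (V-ATPase) and 28 that encode lysosomal hydrolases, their helper proteins and lysosomal membrane proteins. They were chosen by name among the 22138 genes of the deposited table, with their difference between control siRNA and Hnrnpk siRNA already known, so that difference is given below as a description of these genes and not as a test of them. RNA came from TT2 cells, a female line of mouse ES cells (C57BL/6xCBA), kept without feeder cells in medium with serum and LIF. The 2 control libraries came from cells given control siRNA and the 2 Hnrnpk libraries from cells given siRNA against Hnrnpk, which encodes hnRNP K, a protein that binds RNA and DNA. Both groups received 100 nM of siRNA and a second dose of 50 nM after 24 hours, and RNA was taken about 72 hours after the second dose. The design calls the 2 libraries of a group biological replicates without saying whether they were separate cultures, so p-values measure the spread between these libraries, which may be technical. The siRNA sequences are not used here.

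Lysosomes break down proteins, lipids and sugars in an acidic interior. The acid is made by the V-ATPase, a rotary machine in which the V1 sector in the cytosol splits ATP and the V0 sector in the membrane moves protons. The hydrolases work best at low pH, are made in the endoplasmic reticulum and mostly reach the lysosome through the mannose 6-phosphate receptors. Many genes of both kinds carry a short sequence near their start, the CLEAR element, that is bound by TFEB and TFE3, transcription factors of the MiT-TFE family.

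The values were RPKM, reads scaled to gene length and library size. The libraries had relative depths of 0.882 to 1, taken from the steps between low values, and 17566 to 18077 genes above 0. Hnrnpk itself stood at 236 and 226 RPKM with control siRNA and at 68.0 and 70.5 RPKM with its own siRNA, a log2 change of -1.73 (SE 0.0629). The 10 listed markers of pluripotent cells were all present in every library and summed to 4094 and 3935 RPKM in the controls and to 4699 and 5022 RPKM after Hnrnpk siRNA. Dppa5a alone, from 1320 and 1276 RPKM to 2164 and 2451 RPKM, rose by more than the sum did. In 5 of the 10 markers both Hnrnpk siRNA libraries were below both controls, and in 2 they were above. In the fit described below, 2 of these markers were called higher and 4 lower, where 32.2% of all tested genes were called higher and 35.0% lower.

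Because the CLEAR element is the sequence most often tied to these genes, RefSeq promoter windows of GRCm38.p6, from 250 bases before to 50 bases after the annotated start, were searched for its core. The letters CACGTG, which read the same on both strands, occurred in a window of 14 of the 35 members found in the promoter table (40.0%), against 12.4% of the 8756 tested genes in that table. The longer TCACGTGA, which contains the first motif and also reads the same on both strands, occurred in 8 of 35 members (22.9%), against 2.24% of the same tested genes. By group, CACGTG stood in 4 of 11 pump genes and 10 of 24 hydrolase and membrane genes. A match is a description of the letters and not evidence of binding. The sequences below, 5′ to 3′ along the gene with CACGTG in capitals, show 5 members that were higher after Hnrnpk siRNA by different amounts and 1, Glb1, that was lower. The stretch of Lamp1 is chr8:13158911-13159160 (plus strand), with 4 matches in the last bases before the start:
Lamp1: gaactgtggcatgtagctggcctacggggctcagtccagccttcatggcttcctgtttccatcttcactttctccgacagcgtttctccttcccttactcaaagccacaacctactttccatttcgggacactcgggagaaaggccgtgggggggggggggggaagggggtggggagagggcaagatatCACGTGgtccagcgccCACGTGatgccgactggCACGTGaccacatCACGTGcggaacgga
That of Atp6v0b is chr4:117887334-117887425 (minus strand), with 2 matches:
Atp6v0b: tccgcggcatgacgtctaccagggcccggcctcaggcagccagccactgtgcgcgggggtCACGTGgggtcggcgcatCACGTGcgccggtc
That of Gla is chrX:134601164-134601255 (minus strand), with 2 matches further from the start:
Gla: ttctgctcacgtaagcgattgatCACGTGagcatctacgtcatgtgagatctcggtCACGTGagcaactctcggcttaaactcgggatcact
That of Glb1 is chr9:114400970-114401065 (plus strand), with 1 match, and it also lies just before Tmppe, a gene on the same strand whose row was higher after Hnrnpk siRNA (described below with Glb1):
Glb1: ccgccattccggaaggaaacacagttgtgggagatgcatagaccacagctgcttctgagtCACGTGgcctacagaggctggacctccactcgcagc
The windows of Ctsd and Mcoln1 hold 2 matches each. For Ctsd (chr7:142387908-142387937, minus strand) and Mcoln1 (chr8:3500462-3500491, plus strand), the stretch meets an exon annotated in GENCODE M21, so only 30 bases around the match nearest the start are shown:
Ctsd: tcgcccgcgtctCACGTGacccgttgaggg
Mcoln1: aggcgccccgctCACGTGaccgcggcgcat
The entries of Asah1, Atp6v0a2, Atp6v1b2, Atp6v1c1, Atp6v1g1, Atp6v1h, Ctsb, Galns and Npc1 were not in the table.

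All 16 proton pump genes were higher after Hnrnpk siRNA, by log2 changes of 0.30 (Atp6v0a1) to 1.33 (Atp6ap1). In each of the 16 the higher control library was below the lower Hnrnpk siRNA library, against 41.2% of the 12486 genes tested; a further 43.5% had both Hnrnpk siRNA libraries below both controls, so groups that did not overlap were the usual case in this table. The fit across all genes (limma on log2(RPKM + 0.5), Benjamini-Hochberg adjusted p under 0.05) called all 16 higher, where 32.2% of all tested genes were called higher and 35.0% lower; nothing is read from that count, since the genes were chosen on this contrast. Their median log2 change was 0.69, with the middle of the group between 0.48 and 0.82, beside a median of -0.015 and a middle range of -0.35 to 0.30 over all genes tested. The summed RPKM of the 16 genes was 714 and 713 with control siRNA and 1100 and 1154 with Hnrnpk siRNA, a ratio of 1.58.

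**Figure D1:**
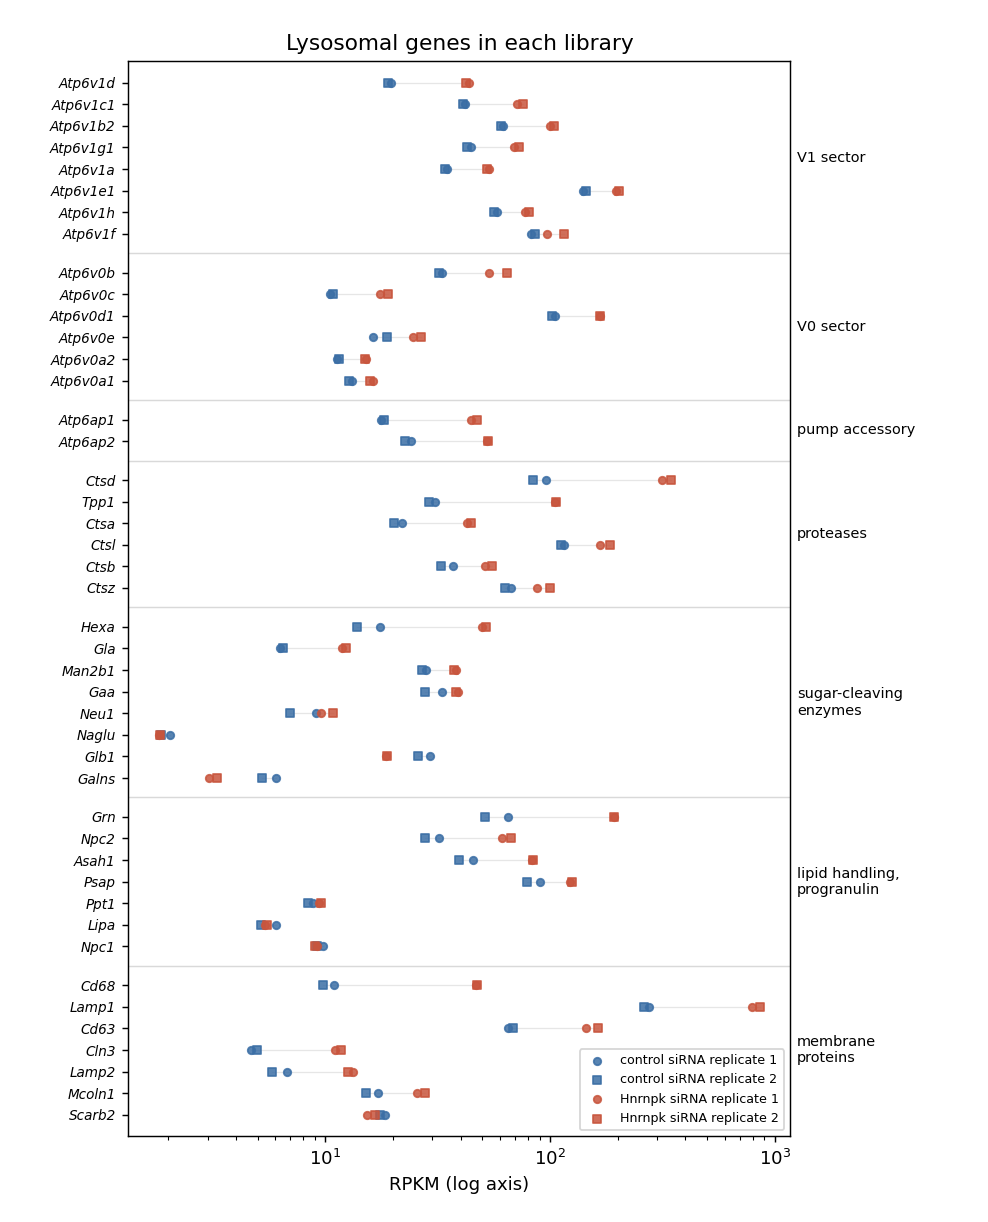
RPKM of the 44 lysosomal genes in each of the 4 libraries, on a log axis, with genes grouped by role and ordered within a role by their change. Blue points are the control siRNA libraries and red points the Hnrnpk siRNA libraries; the red points lie to the right of the blue ones in all 16 pump genes and to the left of them in Glb1, Galns, Naglu, Npc1 and Scarb2.

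Within the V1 sector the levels of the 8 subunits differed widely. Atp6v1e1, a subunit of the stalk that holds the ATP-splitting head in place, was the most abundant, at 141 and 145 RPKM with control siRNA and 198 and 202 RPKM after Hnrnpk siRNA. Atp6v1d, which forms the turning axle, was the least abundant, at 19.7 and 19.1 RPKM in the controls and 43.5 and 42.2 RPKM after Hnrnpk siRNA. Both genes were clearly separated between the groups, and the least abundant subunit showed the greatest change of the sector, a log2 change of 1.12 (SE 0.0625) against 0.48 (SE 0.0626) for Atp6v1e1. The ratio of mean RPKM between these subunits was 7.38 in the controls and 4.67 after Hnrnpk siRNA.

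The genes of the ATP-splitting head were Atp6v1a and Atp6v1b2, the A subunit that holds the catalytic sites and the widely expressed form of the B subunit. Atp6v1a stood at 35.0 and 34.2 RPKM in the controls and at 53.5 and 52.2 RPKM after Hnrnpk siRNA (log2 change 0.60, SE 0.0605). Atp6v1b2 stood at 61.6 and 60.4 RPKM and then at 99.8 and 104 RPKM (log2 change 0.74, SE 0.0615). In both, the libraries of a group lay close together and far from the other group. Atp6v1c1, part of the link between the sectors, went from 41.7 and 41.2 to 71.3 and 75.6 RPKM (log2 change 0.82, SE 0.0624). Atp6v1g1, a stalk subunit, went from 44.4 and 42.7 to 69.5 and 72.9 RPKM (log2 change 0.70), and 31.5% of its transcript is shared at 95% identity or more with other annotated genes, so its level is uncertain. The regulatory subunit gene Atp6v1h and Atp6v1f, which sits on the axle, had the smallest changes of the sector, 0.47 and 0.34. The Atp6v1h libraries were at 57.8 and 56.1 RPKM in the controls and at 77.8 and 80.5 RPKM after Hnrnpk siRNA, well apart. For Atp6v1f the libraries were at 82.0 and 85.8 RPKM in the controls and at 97.2 and 116 RPKM after Hnrnpk siRNA, so the spread after Hnrnpk siRNA was wider than the gap between the nearest libraries of the groups. Another annotated gene shares 25.1% of its transcript.

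In the V0 sector, the membrane part, the changes of the 6 genes ran from 0.30 to 0.84. Atp6v0b and Atp6v0c encode the proteolipids of the proton-carrying ring. Atp6v0b went from 33.1 and 32.0 RPKM in the controls to 53.4 and 64.6 RPKM after Hnrnpk siRNA (log2 change 0.84, SE 0.0872). Atp6v0c went from 10.5 and 10.9 to 17.4 and 19.0 RPKM (log2 change 0.74, SE 0.0718). Neither gene's groups overlapped, and 39.5% of the Atp6v0c transcript is shared with its pseudogenes Atp6v0c-ps1 and Atp6v0c-ps2. Atp6v0d1, which joins the ring to the axle, was the most abundant gene of the sector, at 105 and 102 RPKM and then at 166 and 167 RPKM (log2 change 0.69, SE 0.0612). Atp6v0a1 and Atp6v0a2 are alternative forms of the large a subunit that lines the proton path. Their libraries were at 13.2 and 12.8 RPKM in the controls against 16.3 and 15.8 RPKM after Hnrnpk siRNA for Atp6v0a1, and at 11.3 and 11.6 against 15.1 and 15 RPKM for Atp6v0a2. These were among the smallest changes of the pump, 0.30 (SE 0.0671) and 0.38 (SE 0.0666), with groups that did not overlap. The small subunit gene Atp6v0e went from 16.3 and 18.8 to 24.6 and 26.7 RPKM (log2 change 0.54, SE 0.0830).

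The accessory genes Atp6ap1 and Atp6ap2, which encode membrane proteins needed to assemble the pump (the product of Atp6ap2 is also called the prorenin receptor), had the greatest changes of the 16. Atp6ap1 was at 17.8 and 18.2 RPKM in the controls and at 44.5 and 47.5 RPKM after Hnrnpk siRNA, with a log2 change of 1.33 (SE 0.0650). Atp6ap2 was at 24.0 and 22.6 RPKM and then at 52.3 and 53.2 RPKM, a log2 change of 1.16 (SE 0.0631). Both more than doubled, with libraries of a group within a few RPKM of each other. Of the subunits proper, Atp6v1d alone also passed a log2 change of 1. Both accessory genes lie on chromosome X of GRCm38, Atp6ap1 at chrX:74297097-74304721 and Atp6ap2 at chrX:12587801-12617049.

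**Figure D2:**
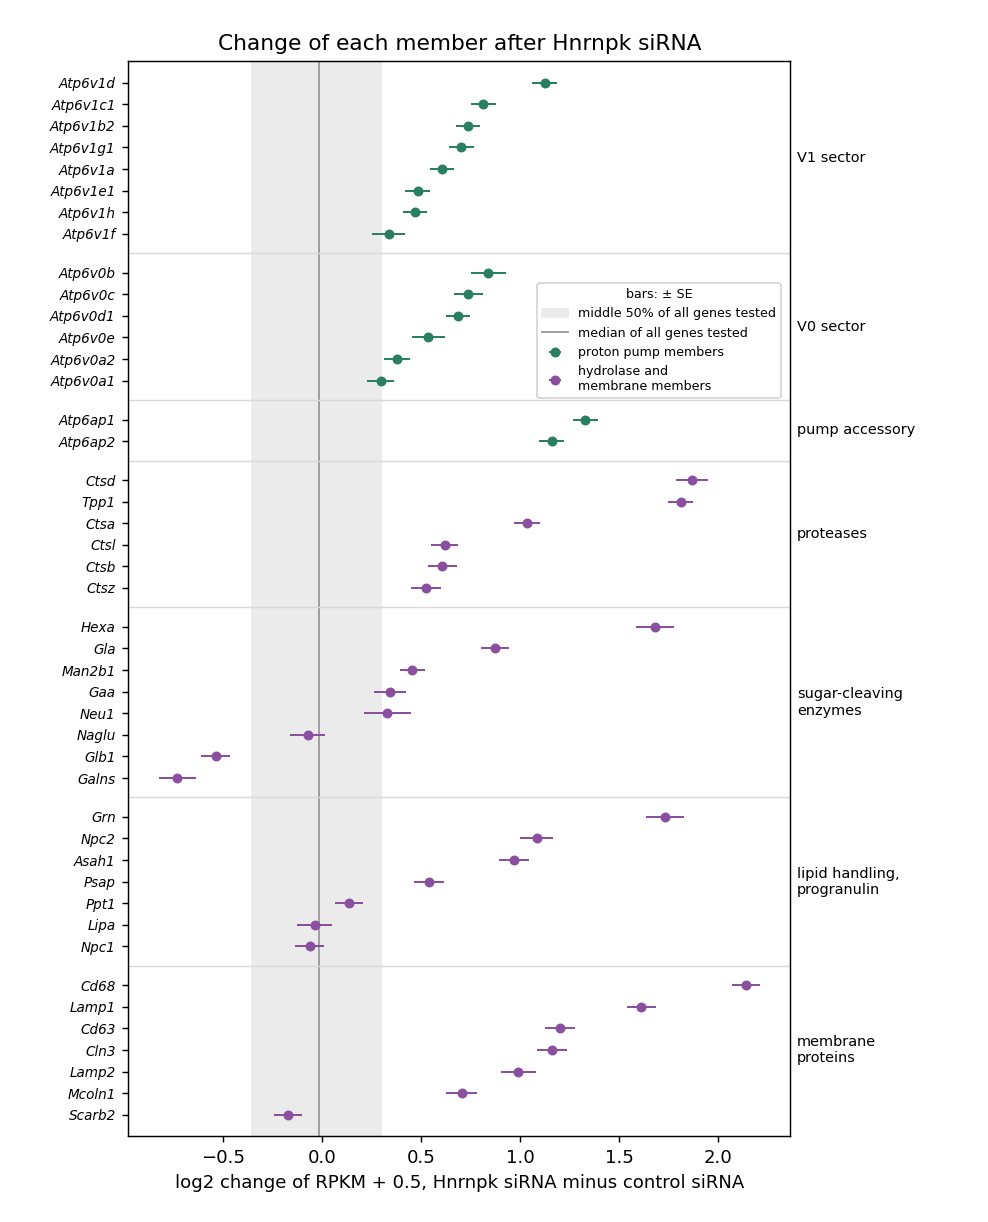
Log2 change of RPKM + 0.5 (Hnrnpk siRNA minus control siRNA) of each of the 44 genes with its SE from limma, grouped by role. The grey band holds the middle of all 12486 genes tested (-0.35 to 0.30); the pump genes (green) span 0.30 to 1.33 and the hydrolase and membrane genes (purple) -0.73 to 2.14.

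The hydrolase and membrane genes had nearly the same median log2 change as the pump, 0.66 against 0.69, but spread far more widely, from -0.73 to 2.14 with the middle of the group between 0.28 and 1.17. Of these 28 genes, 21 were called higher, 2 lower (Glb1 and Galns) and 5 neither way, against 32.2% and 35.0% of all tested genes, and again nothing is read from the count. Which group had the higher median depended on the processing: the pump minus hydrolase difference of medians was 0.032, it was -0.0061 with GC trends removed, and leaving out 1 library at a time gave -0.029 to 0.070. The summed RPKM of the 28 genes was 1156 and 1061 in the controls and 2473 and 2645 after Hnrnpk siRNA, a ratio of 2.31. Lamp1 alone carried much of that sum, and without it the ratio was 2.06.

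All 6 protease genes were called higher. Of all tested genes, 32.2% were called higher, and nothing is read from the count. Ctsd, which encodes cathepsin D, the main aspartic protease of lysosomes, was at 96.2 and 84.0 RPKM with control siRNA and at 315 and 345 RPKM after Hnrnpk siRNA. Tpp1, which encodes a tripeptide-removing peptidase lost in a form of Batten disease, was at 30.8 and 29.0 RPKM and then at 106 RPKM in both libraries. Both genes stood more than 3-fold higher with no overlap, at log2 changes of 1.87 (SE 0.0820) and 1.81 (SE 0.0624). The Ctsd locus (chr7:142375911-142388038, minus strand) shares 38% of its transcript with the overlapping gene Gm49369 on the same strand. Ctsa, whose product also protects the enzymes of Glb1 and Neu1 from degradation, went from 21.8 and 20.3 to 42.8 and 44.5 RPKM (log2 change 1.03, SE 0.0664). The cysteine protease genes moved less. Ctsl went from 116 and 112 to 167 and 184 RPKM, Ctsb from 36.9 and 32.9 to 51.6 and 55.2 RPKM, and Ctsz from 66.9 and 63.2 to 87.9 and 100.3 RPKM. Their groups did not overlap, and their log2 changes were 0.62, 0.61 and 0.53. Other annotated transcripts share 31.6% of the Ctsl transcript.

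The 8 genes of sugar-cleaving enzymes differed in direction. Hexa, which encodes the alpha subunit of beta-hexosaminidase, the enzyme deficient in Tay-Sachs disease, was at 17.4 and 13.9 RPKM in the controls and at 50.0 and 52.1 RPKM after Hnrnpk siRNA (log2 change 1.68, SE 0.0965). Gla, for the alpha-galactosidase deficient in Fabry disease, was at 6.28 and 6.47 RPKM and then at 11.9 and 12.3 RPKM (log2 change 0.88, SE 0.0717). Both were higher in every Hnrnpk siRNA library than in any control. Smaller values in the same direction were found for Man2b1 (alpha-mannosidase), Gaa (the alpha-glucosidase that cleaves glycogen) and Neu1 (a sialidase), at 0.46, 0.34 and 0.33. Man2b1 went from 28 and 26.9 to 38.3 and 37.4 RPKM, and Gaa from 32.9 and 27.8 to 39.0 and 38.1 RPKM, both without overlap. Neu1 had the least even libraries, at 9.13 and 6.96 RPKM in the controls and 9.54 and 10.8 RPKM after Hnrnpk siRNA. It was no longer called without control replicate 2 (log2 change 0.15), without Hnrnpk siRNA replicate 2 (0.24) or with no filter on low values.

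Galns, for a sulfatase that acts on keratan sulfate, was at 6.03 and 5.21 RPKM in the controls and at 3.05 and 3.31 RPKM after Hnrnpk siRNA. Glb1, for beta-galactosidase, was at 29.1 and 25.8 RPKM and then at 18.7 and 18.8 RPKM. These were the 2 members called lower, with log2 changes of -0.73 (SE 0.0933) and -0.54 (SE 0.0735) and groups that did not overlap. Naglu, which removes N-acetylglucosamine from heparan sulfate, was the least abundant member, at 2.03 and 1.86 RPKM and then at 1.81 and 1.84 RPKM. Its groups were separated by a small margin and it was not called (log2 change -0.071, SE 0.0895).

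The name Glb1 stood on 2 rows of the table that went in opposite directions. The row described above carries ENSMUSG00000045594, which GENCODE M21 calls Glb1 (chr9:114401076-114474898, plus strand). The second row carries ENSMUSG00000079260, which M21 calls Tmppe, a gene for a membrane protein with a metallophosphoesterase domain that lies within the start of Glb1 (chr9:114401105-114407276, plus strand) and overlaps its exons over 5.65% of its own exonic length. That row stood at 6.49 and 5.90 RPKM in the controls and at 23.0 and 22.5 RPKM after Hnrnpk siRNA, with a log2 change of 1.80 (SE 0.0735). The summed levels and medians of the hydrolase and membrane group given here use the first row alone.

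Among the 7 genes of lipid handling and related secreted proteins, 4 were called higher and 3 neither way. Over all tested genes, 32.2% were called higher and 35.0% lower. Grn, which encodes progranulin, the precursor of granulin peptides made in lysosomes, was at 64.8 and 51.3 RPKM in the controls and at 193 and 192 RPKM after Hnrnpk siRNA (log2 change 1.73, SE 0.0973). The control libraries of Grn differed by more than the Hnrnpk siRNA libraries did, and both lay far below them. Npc2, whose product hands cholesterol to the protein of Npc1, was at 32.2 and 27.8 RPKM and then at 61.2 and 66.8 RPKM (log2 change 1.08, SE 0.0818). Npc1, for the membrane protein that exports cholesterol, was at 9.77 and 9.22 RPKM and then at 9.17 and 8.99 RPKM (log2 change -0.061, SE 0.0722). These partners in cholesterol export thus stood apart, Npc2 about doubled and Npc1 not called. Asah1, for acid ceramidase, went from 45.6 and 39.4 to 82.8 and 84.3 RPKM (log2 change 0.97, SE 0.0760). Psap, for the precursor of the saposins that present lipids to hydrolases, went from 90.7 and 79.1 to 122 and 125 RPKM (log2 change 0.54, SE 0.0751). Lipa, for acid lipase, had control libraries at 6.02 and 5.20 RPKM that enclosed both Hnrnpk siRNA libraries, at 5.39 and 5.50 RPKM, and was the 1 member whose groups overlapped (log2 change -0.037, SE 0.0881). Ppt1, for a thioesterase that removes palmitate from proteins, was at 8.79 and 8.41 RPKM and then at 9.42 and 9.59 RPKM, and with a log2 change of 0.14 (SE 0.0716) it was not called.

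Of the 7 membrane protein genes, 6 were called higher and Scarb2 was not called, beside 32.2% of all tested genes called higher. Lamp1, for a heavily glycosylated protein that coats the inner face of the lysosomal membrane, was the most abundant of all 44 genes. It was at 276 and 263 RPKM in the controls and at 791 and 863 RPKM after Hnrnpk siRNA, with a log2 change of 1.61 (SE 0.0753). Lamp1 (chr8:13159161-13175338, plus strand, the gene whose promoter holds 4 matches above) overlaps Grtp1 on the other strand over 9.31% of its exonic length. Lamp2, for the related protein also used in chaperone-mediated autophagy, was much less abundant, at 6.79 and 5.77 RPKM and then at 13.3 and 12.7 RPKM (log2 change 0.99, SE 0.0872).

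Cd68, for a LAMP-like protein best known from macrophages, had the greatest change of the 44 genes. It was at 10.9 and 9.79 RPKM in the controls and at 47.0 and 47.5 RPKM after Hnrnpk siRNA, a ratio of 4.57 and a log2 change of 2.14 (SE 0.0708). All 11 macrophage markers matched in the table were under 0.5 RPKM in all 4 libraries, with C1qb listed at 0 in each. Their summed RPKM was 0.908 and 0.884 in the controls and 0.603 and 0.548 after Hnrnpk siRNA. Cd63, for a tetraspanin of late endosomes, went from 64.9 and 68.1 to 145 and 163 RPKM (log2 change 1.20, SE 0.0737). Its pseudogene Cd63-ps shares 73.2% of its transcript at 95% identity or more, so its level is uncertain. Cln3, for a membrane protein lost in juvenile Batten disease, went from 4.67 and 4.98 to 11.1 and 11.7 RPKM (log2 change 1.16, SE 0.0766). Mcoln1, for the calcium channel mucolipin 1, went from 17.2 and 15.1 to 25.6 and 27.7 RPKM (log2 change 0.71, SE 0.0792). Scarb2, for the membrane protein LIMP-2, was at 18.4 and 17.5 RPKM and then at 15.3 and 16.6 RPKM. Its log2 change was -0.17 (SE 0.0712), and it was called lower with GC trends removed, with the replicate block and without control replicate 2.

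The control libraries differed from each other in the hydrolase and membrane genes more than in the pump genes. Control replicate 1 was above control replicate 2 in 25 of the 28 genes, by a median of 0.16 on the log2 scale, against 10 of the 16 pump genes, by a median of 0.030, and 57.3% of all genes tested, by a median of 0.023. The median change of the 28 genes was 0.74 without control replicate 1 and 0.61 without control replicate 2. The part of this difference in the changes was not tested. The pairs of Hnrnpk siRNA libraries differed by a median of 0.057 in both groups of genes, regardless of direction.

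**Figure D3:**
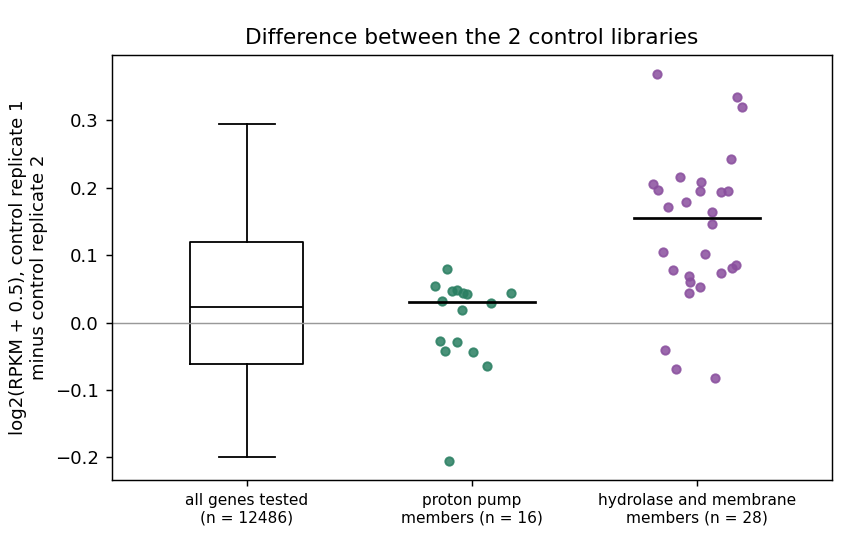
Difference between the 2 control libraries (replicate 1 minus replicate 2, log2 of RPKM + 0.5) for all genes tested (box, middle 50% with the median; whiskers from the 5th to the 95th percentile) and for each pump and each hydrolase or membrane gene (points, with the median as a bar). The hydrolase and membrane genes lie mostly above 0, with a median of 0.16, and the pump genes around 0, with a median of 0.030.

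Markers of other embryonic cell types moved in the same libraries. The 16 primitive endoderm markers, a lineage that forms the yolk sac, summed to 40.6 and 39.0 RPKM in the controls and to 83.4 and 86.5 RPKM after Hnrnpk siRNA. Of the 10 tested, 7 were called higher and 1 lower, where 32.2% of all tested genes were called higher and 35.0% lower. Sox17, Foxa2, Cubn, Hnf4a and the later markers Ttr and Afp did not pass the filter on low values. The 10 trophectoderm markers summed to 79.8 and 75.6 RPKM and then to 115 and 119 RPKM, with 6 of 7 tested called higher and 1 lower. The 9 fibroblast markers, for feeder cells, summed to 10.7 and 9.11 RPKM and then to 5.26 and 5.49 RPKM. Thy1 alone went from 6.90 and 5.20 to 2.22 and 2.28 RPKM, and 6 of the 9 were under 0.5 RPKM in all libraries. Only 3 were tested, with 2 called lower and 1 neither way. The part of any of these cells in the lysosomal values was not tested. In bulk RNA, more cells of a type and more RNA per cell cannot be told apart.

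The rest of the pathway was examined in 153 further genes matched from 6 lists, of which 134 passed the filter of a mean of at least 0.5 RPKM. The lists hold none of the 44, but they were written with earlier results of these data known. Their counts are therefore a description and not an independent check. Limma called 67 of the tested genes higher and 30 lower (50.0% and 22.4%, against 32.2% and 35.0% of all genes tested). The median log2 change was 0.17, against 0.69 and 0.66 for the 2 groups of members.

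**Figure D4:**
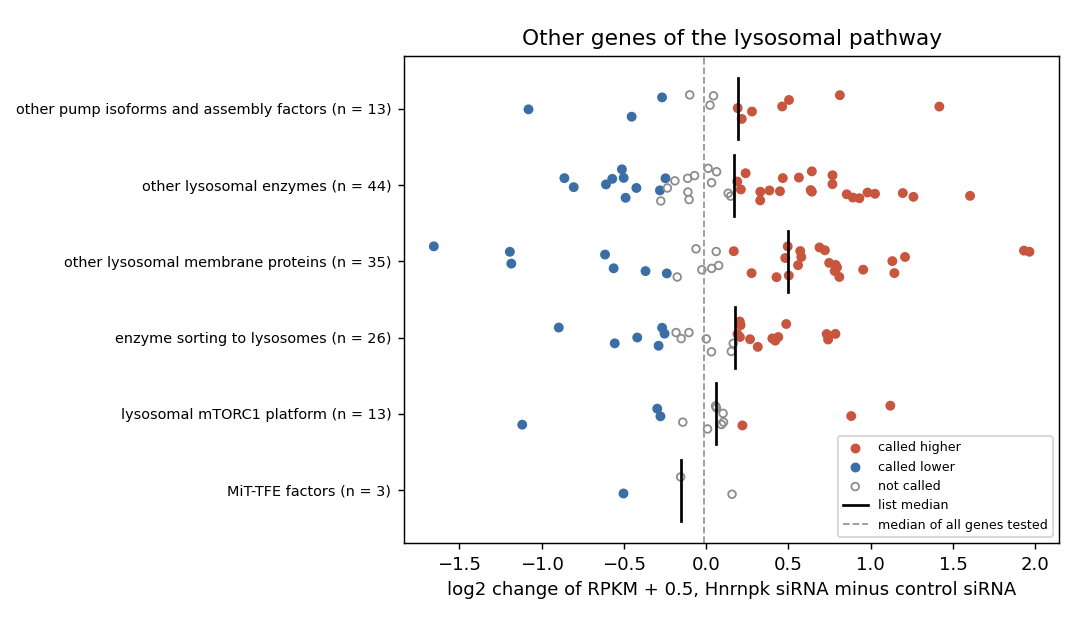
Log2 change of RPKM + 0.5 (Hnrnpk siRNA minus control siRNA) of the tested genes in each list of other lysosomal genes; filled points were called by limma, open points were not, and the bar is the list median. The medians run from -0.16 for the MiT-TFE factors to 0.50 for the other lysosomal membrane proteins, beside -0.015 for all genes (dashed line).

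Of the other pump genes, 7 forms made mainly in tissues such as kidney, bone, brain or testis were low. Atp6v0a4, Atp6v0d2, Atp6v1b1, Atp6v1c2, Atp6v1e2, Atp6v1g2 and Atp6v1g3 did not pass the filter, and Atp6v0d2 was listed at 0 in every library. The remaining isoforms and assembly factors gave 7 genes called higher and 3 lower of 13 tested, with a median of 0.19. Among them Tcirg1, another form of the a subunit, was not called (log2 change -0.10). It was at 5.14 and 4.49 RPKM in the controls and at 4.25 and 4.66 RPKM after Hnrnpk siRNA. Rnasek, for a small protein bound to the pump, rose from 84.5 and 86.7 to 234 and 225 RPKM (log2 change 1.42, SE 0.0625, limma adjusted p = 1.63e-07); GENCODE M21 gives the identifier of that row to Gm21988, which overlaps Rnasek. Ccdc115, for a factor that assembles the V0 sector, rose from 25.7 and 28.6 to 45.3 and 50.8 RPKM (log2 change 0.81, SE 0.0785, limma adjusted p = 1.62e-05). Atp6v0e2 rose too, by 0.50 (SE 0.0874, limma adjusted p = 0.000671). Rogdi, for a partner of the RAVE complex that rejoins V1 to V0, fell from 51.0 and 47.8 to 23.1 and 23.0 RPKM (log2 change -1.08, SE 0.0638, limma adjusted p = 9.2e-07).

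The other lysosomal enzymes were mixed, with 22 of 44 tested genes called higher, 10 lower and a median of 0.17. Dpp7, for a dipeptidyl peptidase, rose from 5.14 and 4.68 to 14.2 and 17.9 RPKM (log2 change 1.60, SE 0.106, limma adjusted p = 1.69e-06). Sumf1, whose product activates all sulfatases, among them that of Galns, rose by 0.98 (SE 0.0727, limma adjusted p = 3.22e-06), and Prcp, for a carboxypeptidase, by 0.89 (SE 0.0709, limma adjusted p = 4.92e-06).

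Of the 35 other lysosomal membrane genes tested, 22 were called higher and 7 lower, with a median of 0.50. Mfsd1, for a lysosomal dipeptide transporter, rose from 18.7 and 19.3 to 73.7 and 77.7 RPKM (log2 change 1.96, SE 0.0630, limma adjusted p = 3.5e-08). Laptm5 rose from 11.4 and 10.2 to 44.9 and 40.4 RPKM (log2 change 1.93, SE 0.0803, limma adjusted p = 1.31e-07), a gene otherwise known from blood cells. Spns1, for a transporter of lysophospholipids, rose by 1.14 (SE 0.0628, limma adjusted p = 6.31e-07). The tetraspanin gene Tspan4 went the other way, from 18.2 and 19.4 to 5.34 and 5.93 RPKM (log2 change -1.66, SE 0.0785, limma adjusted p = 2.81e-07).

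The machinery that sorts enzymes to lysosomes showed smaller changes, with 13 of 26 genes called higher, 6 lower and a median of 0.18. Vps11 and Vps33a, of the complex that tethers late endosomes to lysosomes, rose by 0.79 (SE 0.0673) and 0.73 (SE 0.0663), at limma adjusted p-values of 7.76e-06 and 1.08e-05. Of the other listed subunits of that complex, Vps16 fell by 0.25 on the log2 scale (SE 0.0670, limma adjusted p = 0.00766), and Vps18, Vps39 and Vps41 were not called, at log2 changes of 0.15, -0.18 and -0.10. Nagpa, for the enzyme that uncovers the mannose 6-phosphate tag, rose by 0.74 (SE 0.0836, limma adjusted p = 4.19e-05). Sort1, for the sorting receptor sortilin, fell from 11.4 and 10.9 to 5.72 and 5.80 RPKM (log2 change -0.90, SE 0.0723, limma adjusted p = 5.41e-06).

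Genes of the platform where lysosomes recruit the growth regulator mTORC1 had a median of 0.062, with 3 of 13 called higher and 3 lower. Rragc and Rragb, for members of the RAG pairs of GTPases, went in opposite directions. Rragc rose from 19.1 and 17.5 to 39.3 and 41.2 RPKM (log2 change 1.12, limma adjusted p = 1.16e-06), and Rragb fell from 15.4 and 15.6 to 6.79 and 6.98 RPKM (log2 change -1.12, limma adjusted p = 1.16e-06), each with an SE of 0.0691. Lamtor1, which anchors the platform, rose by 0.88 (SE 0.0846, limma adjusted p = 1.57e-05), while Borcs5, of a complex that moves lysosomes, fell by 0.30 on the log2 scale (limma adjusted p = 0.00583).

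The transcripts of the MiT-TFE factors were not higher as a group. Tfe3 fell from 21 and 21.6 to 15 and 14.7 RPKM (log2 change -0.51, SE 0.0646, limma adjusted p = 9.31e-05). Tfeb was at 5.94 and 5.13 RPKM in the controls and at 6.26 and 6.18 RPKM after Hnrnpk siRNA, and was not called (log2 change 0.16, SE 0.0872, limma adjusted p = 0.137). Mitf was under 2 RPKM in all libraries and was not called, and Tfec did not pass the filter. Transcript levels do not report where these proteins were in the cell. Among the members themselves, the median log2 change was 0.70 for the 14 genes with CACGTG in a promoter window and 0.74 for the 21 without it, given as a description.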

How the data were processed

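The labels describe RNA-seq of 4 libraries, 2 per group, and name both rRNA depletion and poly(A) selection. RPKM per gene were deposited by the authors as 1 column per library; BWA, SAMtools and the mm9 build are named in the submitters' processing notes without a role, while the sources used here give no counting tool, annotation or use of strand. RPKM are not counts, absolute depth is unknown and no count model or interval on counts was used.

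Groups were compared with limma 3.58.1 (R 4.3.3), with a mean-variance trend, two-sided, on log2(RPKM + 0.5) for genes averaging 0.5 RPKM or more (12486 of 22138; all 44 members passed), with Benjamini-Hochberg adjustment over all of them and a threshold of 0.05. Changes of low genes are understated by the added 0.5. With 2 libraries per group, calls rest on a variance shared across genes. In simulated data on 12486 genes, 59% of 100 genes with a change of 0.5 and 94% of 100 genes with a change of 1 were called. In the deposited data 67.2% of the tested genes were called, so the Benjamini-Hochberg adjustment was less strict there than in the simulation. The simulated percentages therefore do not give the share of such changes called in the deposited data.

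The members and lists were chosen with earlier results of these data known; the lists of other lysosomal genes and of markers were written from general knowledge. Named genes are all 44 members, Hnrnpk and, per list, up to 4 genes called with groups that do not overlap, lowest p first (1 gene that this rule names is not reported here); Atp6v0a4, Atp6v0d2, Atp6v1b1, Atp6v1c2, Atp6v1e2, Atp6v1g2, Atp6v1g3, Tfeb, Mitf, Tfec, Tmppe, Vps16, Vps18, Vps39, Vps41 and the single cell type markers were named after their values were seen. List names were matched by the table's symbol or by identifier. Of the rows, 92.8% had an identifier in GENCODE M21 (GRCm38), which gave positions and overlaps but is not the build named for the RPKM. Transcripts of members were compared with all M21 transcripts at 95% identity over at least 100 bases, and 6 of 44 shared over 20%. Alternatives covered the added value, the filter, scaling, GC trends, the variance model, the replicate block and leaving out each library.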

Additional observations from a re-analysis of the deposited data

How the results depend on the processing

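Under the 14 alternatives, all 16 pump genes were called higher each time, 20 or 21 of the 28 hydrolase and membrane genes were called higher and 2 or 3 lower, and no member called in any of these fits changed direction. In the main fit, 32.2% of all tested genes were called higher and 35.0% lower, and nothing is read from the member counts. The pump median was 0.62 under quantile normalization, the alternative that moved it most, and 0.67 to 0.71 without 1 library at a time. The hydrolase and membrane median was 0.60 to 0.74 without 1 library at a time. Genes called over the whole table numbered 8396, and 6809 to 8535 without 1 library at a time. The other lysosomal genes called numbered 97, and 82 to 99 without 1 library at a time. With the replicate number as a block, 8622 genes were called, 16 pump genes among them. The correlation across genes of the replicate differences was 0.027. Whether libraries with the same replicate number were handled together is not known. The block changed the call of 1 member, Scarb2. Absolute depth is unknown, so the counting error behind low genes such as Naglu could not be given.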
